A study of Homo sapiens with 25 samples.

Results

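The collagen genes are the 44 protein-coding genes whose symbol reads COL, a number, the letter A and a number, out of 20037 protein-coding genes in the RefSeq gene table of GRCh38.p14, and the rule uses the symbol alone. Their chromatin was followed in H1, a widely used line of human embryonic stem cells, at 4 stages: the undifferentiated cells (hESC) and 3 kinds of endoderm derived from them, which are definitive (hDE), anterior foregut (hAFE) and pharyngeal foregut (hPFE) endoderm. Chromatin immunoprecipitation with sequencing (ChIP-seq) was done for 3 histone marks: acetylation of lysine 27 of histone H3 (H3K27ac), its trimethylation (H3K27me3), and dimethylation of lysine 4 (H3K4me2). Of the 25 samples, 21 are ChIP libraries with a peak list each and 4 are input chromatin, 1 a stage. H3K27ac had 2 libraries at every stage, H3K27me3 had 2 except for 1 in hAFE, and H3K4me2 had 2 in hESC and in hDE and 1 in hAFE and in hPFE. No genotype or agent that differs between the stages is named in the labels, all cells are of 1 line, and nothing says whether replicates were separate cultures. The labels mark the hESC libraries of H3K27ac and H3K27me3 as re-analysed, so in a comparison of these marks with hESC, batch and stage cannot be told apart.

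Collagens are triple helices of 3 chains that build the extracellular matrix. Type IV chains form the sheet-like network of basement membranes, which lie under epithelia and endothelia, and types XV and XVIII are attached to these membranes. The fibrillar chains (types I, II, III, V, XI, XXIV and XXVII) form the fibres of connective tissue, cartilage and bone and are made mainly by mesenchymal cells. Endoderm is an epithelium that rests on a basement membrane. H3K27ac is found at active promoters and enhancers, H3K27me3 at genes repressed by Polycomb complexes, and H3K4me2 at promoters and enhancers that are active or poised.

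A gene counts as marked at a stage where all libraries of the mark had a deposited peak reaching into the 1 kb on either side of one of its annotated ends. It counts as unmarked where no library had one, and as mixed otherwise. Both ends are pooled, so different marks called at a gene can lie at different ends. In counts of mark combinations, a gene is with a mark if marked and without it if unmarked, and a mixed gene is left out. A gain is a change from unmarked to marked and a loss is the reverse. Peak lists held 24871 to 111256 peaks for H3K27ac, 23457 to 76441 for H3K27me3 and 87357 to 116210 for H3K4me2. Their sequencing depth is unknown, a missing peak is not an absent mark, and fewer cells with a mark cannot be told apart from less of the mark in each cell. These counts carry no p-value, and counts of collagens are read beside the share of all protein-coding genes with the same call. The fold enrichment given for a gene is the authors' own value for the strongest peak at its ends in that library, and it describes that list only. Each list of stage markers had its highest H3K27ac count at its own stage. Of 8 embryonic stem cell markers, 8, 5, 2 and 3 carried H3K27ac in hESC, hDE, hAFE and hPFE, with LIN28A marked at every stage. Of 9 definitive endoderm markers, 0, 9, 1 and 1 carried H3K27ac. Of 11 pharyngeal foregut markers, 0, 1, 3 and 5 carried it in hESC, hDE, hAFE and hPFE, while TBX1, PAX1 and NKX2-3 kept H3K27me3 in all 7 libraries. Of 10 mesenchyme markers, 0, 1, 0 and 0 carried H3K27ac, of 5 neural crest markers 1, 1, 0 and 0, and of 6 endothelial markers 2, 1, 0 and 0.

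The 6 type IV genes stand as 3 head-to-head pairs whose starts face each other, so both genes of a pair count as 1 site: in every H3K27ac and H3K27me3 library they shared their strongest peak, and in 1 H3K4me2 library (hDE replicate 2) COL4A1 and COL4A2 did not. In GRCh38, COL4A1 (chr13:110148963-110307157, minus strand) and COL4A2 (chr13:110307284-110513209, plus strand) leave 126 bp between them. COL4A4 (chr2:226967360-227164488, minus) and COL4A3 (chr2:227164624-227314792, plus) leave 135 bp, and COL4A6 (chrX:108155614-108439458, minus) and COL4A5 (chrX:108439838-108697545, plus) leave 379 bp. The RefSeq promoter windows (300 bp each, 250 bp before the start and 50 bp after it, GRCh38.p14) of 1 gene of each pair are printed 5′ to 3′ on the strand of the gene, because the 3 pairs carried different marks on the same kind of start. The window of COL5A1, which carried H3K27ac in definitive endoderm only, is printed with them. Capitals mark every match to GGGCGG (the core of the GC box), CCAAT (the CCAAT box), TATAAA (the TATA box) or TGTTTAC (a forkhead site), searched on both strands, so a match to the complement of a motif is in capitals as well, and no motif overlaps another in these windows.
COL4A1 (chr13:110307108-110307407, minus strand): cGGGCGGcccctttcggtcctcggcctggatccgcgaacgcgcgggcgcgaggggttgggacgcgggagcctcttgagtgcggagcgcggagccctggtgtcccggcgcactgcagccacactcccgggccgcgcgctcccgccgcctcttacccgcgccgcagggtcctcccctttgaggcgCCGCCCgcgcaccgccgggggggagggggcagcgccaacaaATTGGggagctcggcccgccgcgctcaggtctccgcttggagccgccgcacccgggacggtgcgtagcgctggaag
COL4A3 (chr2:227164374-227164673, plus strand): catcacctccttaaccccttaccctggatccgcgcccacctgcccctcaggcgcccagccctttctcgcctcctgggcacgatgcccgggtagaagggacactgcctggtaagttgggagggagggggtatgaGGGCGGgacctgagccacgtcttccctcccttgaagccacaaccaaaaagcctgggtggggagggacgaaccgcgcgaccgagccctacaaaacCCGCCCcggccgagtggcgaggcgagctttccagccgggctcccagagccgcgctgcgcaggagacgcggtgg
COL4A5 (chrX:108439588-108439887, plus strand): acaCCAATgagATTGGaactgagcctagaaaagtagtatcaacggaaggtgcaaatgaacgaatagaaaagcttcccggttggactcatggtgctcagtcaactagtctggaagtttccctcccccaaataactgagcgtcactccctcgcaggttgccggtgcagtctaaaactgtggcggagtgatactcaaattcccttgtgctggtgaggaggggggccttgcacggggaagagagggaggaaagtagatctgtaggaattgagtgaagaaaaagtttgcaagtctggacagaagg
COL5A1 (chr9:134641553-134641852, plus strand): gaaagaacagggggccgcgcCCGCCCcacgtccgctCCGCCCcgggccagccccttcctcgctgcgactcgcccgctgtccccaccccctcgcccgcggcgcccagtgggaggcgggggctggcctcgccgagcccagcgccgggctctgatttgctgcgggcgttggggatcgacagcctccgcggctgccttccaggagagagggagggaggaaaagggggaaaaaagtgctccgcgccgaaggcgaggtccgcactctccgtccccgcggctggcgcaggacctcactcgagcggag
The COL4A1 window held 45 CpG dinucleotides and 76.7% G or C, with 2 GC boxes and 1 CCAAT box whose first base lies 26 bp before the start. The COL4A3 window held 24 CpG and 2 GC boxes, the COL4A5 window 8 CpG and 2 CCAAT boxes, and the COL5A1 window 36 CpG and 2 GC boxes. Over the 32 collagens with a promoter in the table, GGGCGG was present in 17 (53.1%, against 58.3% of 15843 promoters of all protein-coding genes) and CCAAT in 9 (28.1% against 36.4%). TATAAA was present in 5 (15.6% against 9.75%) and TGTTTAC in 0 (2.67% of all). These matches are letters in a window, and no factor's binding was measured.

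Across all 44 genes, H3K27ac was present at the ends of 7, 17, 6 and 11 collagens in hESC, hDE, hAFE and hPFE. These are 15.9, 38.6, 13.6 and 25% of the collagens, each below the share of all protein-coding genes, which was 42.9, 54.0, 34.2 and 50.2%. H3K27me3 stood at 23, 18, 23 and 20 collagens (52.3, 40.9, 52.3 and 45.5%), against 19.2, 13.4, 15.5 and 12.7% of all protein-coding genes. H3K4me2, which has 1 library and no replicate check in hAFE and hPFE, stood at 35, 32, 31 and 30 (79.5, 72.7, 70.5 and 68.2%), near the background of 72.3, 68.0, 70.2 and 70.1%. H3K27me3 with H3K4me2 and without H3K27ac was at 17, 9, 16 and 15 collagens, where all protein-coding genes gave 13.2, 8.03, 10.8 and 7.72%. H3K27ac without H3K27me3 was at 5, 12, 6 and 7 collagens, against 37.4, 48.8, 33.4 and 46.2% of all protein-coding genes. Both marks of lysine 27 were called, at the same or at different ends, at 1, 5, 0 and 0 (2.78, 2.17, 0.804 and 1.21%). No mark was at 6, 7, 9 and 6 (21, 21.7, 26.6 and 21.2%). H3K4me2 as the only mark was at 5 collagens in hAFE (COL11A1, COL21A1, COL22A1, COL8A1 and COL13A1, against 9.83%) and at 0 in hESC, hDE and hPFE (5.10, 2.30 and 4.14%). In hAFE, H3K27me3 and H3K4me2 had 1 library each, so no gene could be mixed for them, and library number cannot be told apart from stage here. In all 7 of its libraries H3K27me3 was present at 14 of 44 collagens (31.8%, against 9.06% of all protein-coding genes). H3K27ac was present in all 8 of its libraries at 3 of 44 (6.82% against 30.3%), COL4A5, COL4A6 and COL5A2. Without hESC replicate 1, H3K27ac was at 18 collagens in hESC, and without hAFE replicate 2 it was at 10 in hAFE. COL6A3, a chain of the type VI microfibrils, had no peak of any mark at its ends in any of the 21 libraries.

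**Figure D1:**
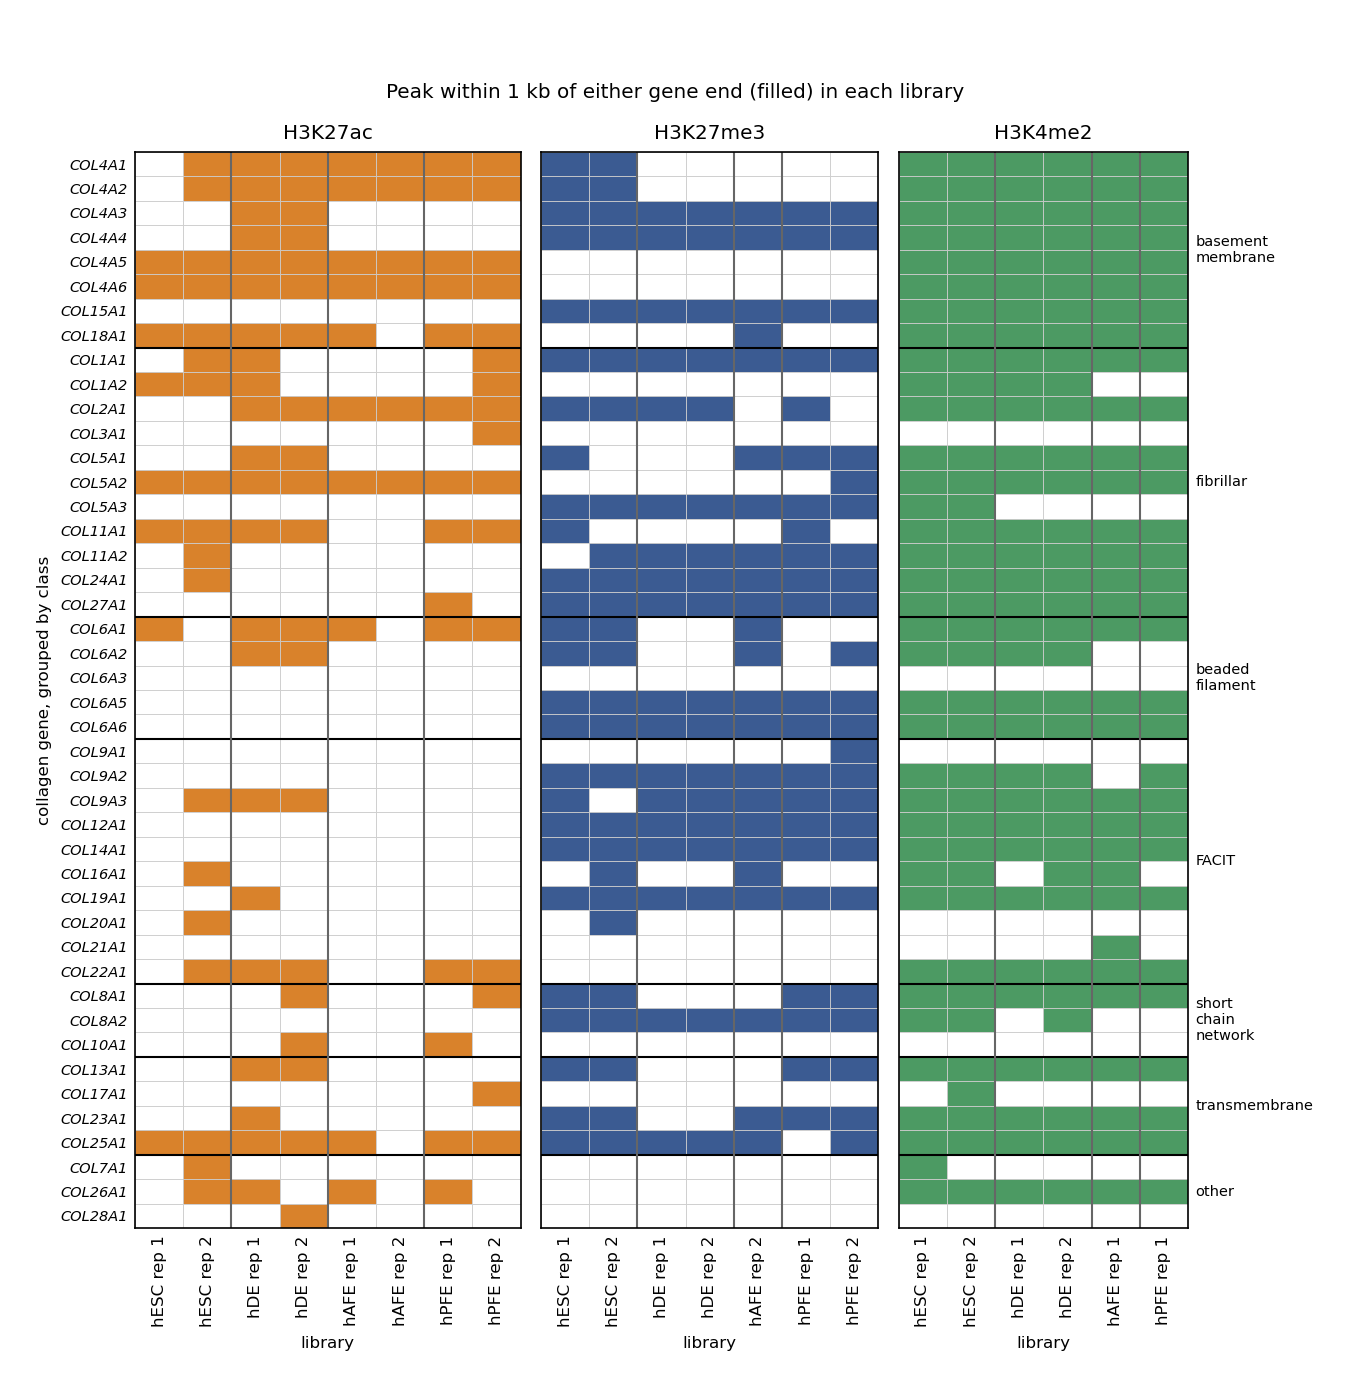
Peak presence at the ends of the 44 collagen genes (rows, grouped by class) in each of 21 libraries (columns, grouped by stage), with 1 panel a mark and a filled cell for a peak that reaches within 1 kb of a gene end. H3K4me2 fills all 8 basement membrane rows, H3K27ac fills most cells for the type IV pairs COL4A1 with COL4A2 and COL4A5 with COL4A6, and H3K27me3 fills 14 rows in all 7 libraries.

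More basement membrane collagens carried H3K27ac in definitive endoderm than at the other stages, 7 of 8, while the fibrillar count stayed between 2 and 4 of 11. The share of all protein-coding genes with H3K27ac was also highest in hDE, at 54.0% against 42.9% in hESC, 34.2% in hAFE and 50.2% in hPFE. Of 8 basement membrane genes, 3, 7, 4 and 5 carried H3K27ac in hESC, hDE, hAFE and hPFE, and of 11 fibrillar genes 3, 4, 2 and 3 did. H3K27me3 marked 5, 3, 4 and 3 of the basement membrane genes and 5, 6, 6 and 6 of the fibrillar genes. H3K4me2 was present at 8 of 8 basement membrane genes at each stage and at 10, 9, 8 and 8 of the 11 fibrillar genes. Counted by gene, more basement membrane than fibrillar genes carried H3K27ac and were unmarked for H3K27me3 at every stage: 3 against 2, 5 against 3, 4 against 2 and 5 against 0. With each type IV pair counted as 1 site, the basement membrane and fibrillar counts were equal in hESC, hDE and hAFE. The 3 fibrillar genes with H3K27ac in hPFE (COL2A1, COL5A2 and COL11A1) were all mixed for H3K27me3 there, so the 0 rests on mixed calls. The 8 genes stand for 5 sites because of the shared starts, so no test of the difference was made. Without hESC replicate 1, 5 basement membrane and 6 fibrillar genes carried H3K27ac in hESC, and without hPFE replicate 1, 6 fibrillar genes did in hPFE. When every H3K27ac list was reduced to its 24831 strongest peaks, the length of the shortest list, 2, 5, 4 and 5 basement membrane genes and 1, 1, 2 and 2 fibrillar genes were marked. At that length hDE and hPFE had the same basement membrane count, 5, so hDE no longer stood above every other stage.

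**Figure D2:**
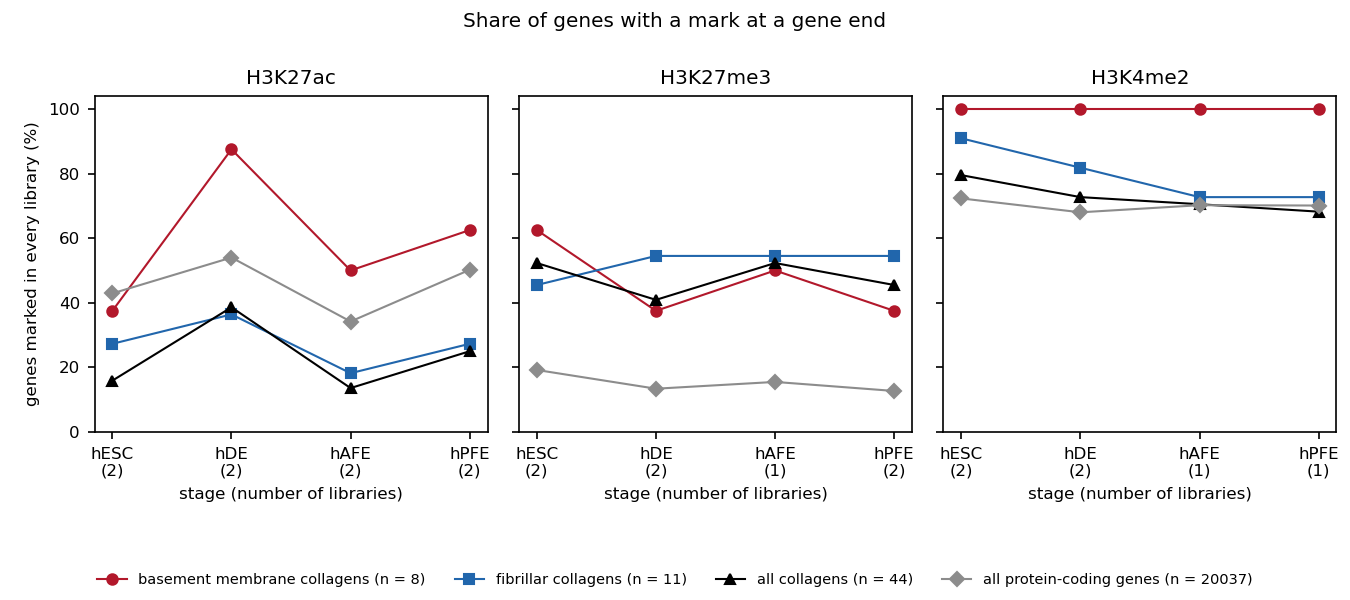
Share of genes marked in every library of a stage (vertical axis, percent) by stage, with the number of libraries in brackets, for basement membrane collagens, fibrillar collagens, all collagens and all protein-coding genes. Basement membrane collagens reach 87.5% for H3K27ac in hDE, and the collagens as a whole lie above the protein-coding genes for H3K27me3 and below them for H3K27ac.

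COL4A1 and COL4A2 encode the chains found in nearly all basement membranes. H3K27me3 had peaks within 1 kb of their shared start in both hESC libraries, at a fold enrichment of 2.87 and 5.20. It had none there in the 5 later libraries. The hESC peaks lay beside the start, and the 300 bp windows of both genes held none. H3K27ac was absent from hESC replicate 1 and was 5.25 in hESC replicate 2, then 9.10 and 11.18 in hDE, 6.98 and 2.96 in hAFE, and 6.86 and 3.75 in hPFE. The later stages thus had H3K27ac in 6 of 6 libraries, whereas the hESC libraries disagreed, and the call in hESC was mixed. H3K4me2 was present in 6 of 6 libraries, from 5.65 to 11.30 at COL4A1. The loss of H3K27me3 was not called when only peaks with a −log10 p of at least 5 were kept.

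COL4A3 and COL4A4 encode chains of the basement membranes of kidney, lung and cochlea. Within 1 kb of their shared start, H3K27ac had peaks of 4.60 and 5.77 in hDE and none in the 6 other libraries. H3K27me3 was present in 7 of 7 libraries, at 5.29 and 7.47 in hESC, 4.05 and 3.89 in hDE, 4.28 in hAFE, and 5.37 and 8.72 in hPFE. Both marks of lysine 27 were therefore called within 1 kb of this start in hDE, a combination found at 2.17% of all protein-coding genes at that stage. In the 300 bp windows of the starts, H3K27me3 was in 0 hDE libraries at either gene. H3K27ac was there in 1 hDE library at COL4A3 and in 0 at COL4A4. The peak lists do not show whether both marks were on the same nucleosomes or in the same cells. With lists of equal length, H3K27ac was not called at this pair in hDE. With an overlap of at least 200 bp, H3K27me3 was not called at it in hAFE.

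COL4A5 and COL4A6 encode the chains of a further type IV network, which is found in skin and smooth muscle basement membranes among others. H3K27ac was present in all 8 libraries, at 4.20 and 4.47 in hESC, 7.05 and 7.93 in hDE, 7.56 and 5.35 in hAFE, and 7.09 and 6.86 in hPFE. H3K27me3 was present in 0 of 7. The 3 pairs thus differed: H3K27ac was called at every stage at COL4A5 and COL4A6, H3K27me3 in hESC and H3K27ac at the later stages at COL4A1 and COL4A2, and H3K27me3 at every stage with H3K27ac in hDE alone at COL4A3 and COL4A4.

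COL18A1, whose C-terminal fragment is endostatin, had H3K27ac at 2.78 and 4.14 in hESC, 7.05 and 8.66 in hDE, 4.29 and no peak in hAFE, and 6.28 and 6.29 in hPFE. H3K27me3 was present only in the single hAFE library, at 3.26. In the 300 bp windows of the listed starts of COL18A1, both marks were in 0 libraries at every stage. COL15A1, its relative in the multiplexin group, had no H3K27ac peak in 8 libraries and H3K27me3 in 7 of 7, at 10.06 and 14.74 in hESC, 4.65 and 6.64 in hDE, 4.66 in hAFE, and 6.91 and 8.38 in hPFE.

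**Figure D3:**
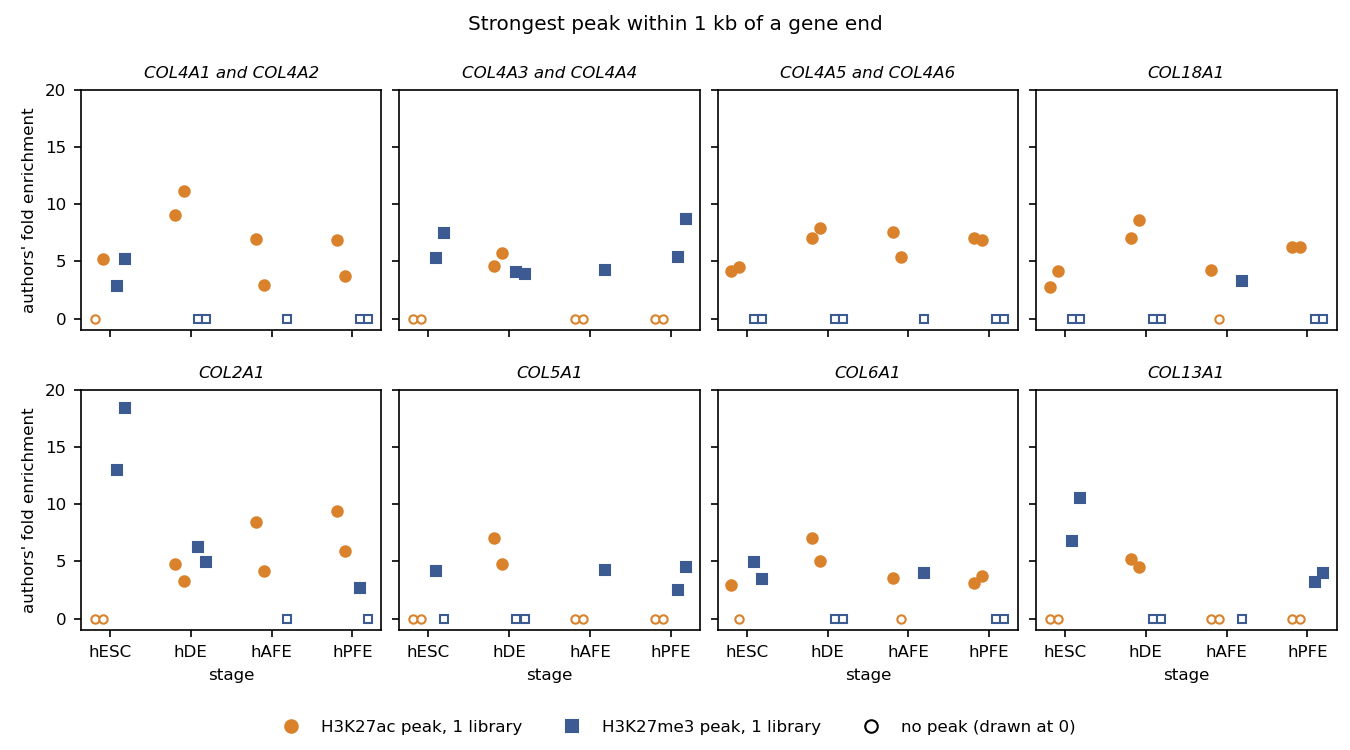
Fold enrichment given by the authors (vertical axis, a ratio) for the strongest H3K27ac and H3K27me3 peak at the ends of 8 collagen genes or gene pairs by stage, with 1 point a library and open symbols at 0 for libraries without a peak. COL4A5 has H3K27ac points alone, COL4A3 has H3K27ac points in hDE alone, and COL2A1 has H3K27me3 points at 13.01 and 18.46 in hESC, where it has no H3K27ac. Points describe their own peak list and their heights are not compared between libraries.

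Among the fibrillar genes COL2A1, the main collagen of cartilage, was the one that gained H3K27ac in hDE and was marked in hAFE and hPFE too. With a −log10 p of at least 5, or with lists of equal length, it was not marked in hDE and was marked in hAFE and hPFE. It had no H3K27ac peak in hESC and peaks of 4.75 and 3.25 in hDE, 8.49 and 4.17 in hAFE, and 9.42 and 5.89 in hPFE, all at its higher-coordinate end (chr12:47972967-48006212). H3K27me3 was 13.01 and 18.46 in hESC and 6.22 and 4.98 in hDE, was absent in hAFE, and was 2.67 in hPFE replicate 1, at the other gene end, and absent in replicate 2. COL2A1 was the 1 collagen of the 25 unmarked in hESC that was marked in hPFE, where 11.4% of all such protein-coding genes were. With 1 library of hESC or hPFE left out, this count was 2 to 4, with 2 without hESC replicate 1, 4 without hESC replicate 2, 4 without hPFE replicate 1 and 3 without hPFE replicate 2.

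COL5A1, a chain that regulates the diameter of type I fibrils, had H3K27ac peaks of 7.05 and 4.81 in hDE and none in the other 6 libraries. Its H3K27me3 was 4.16 in hESC replicate 1 and absent in replicate 2, absent in hDE, 4.27 in hAFE, and 2.46 and 4.52 in hPFE. Neither hDE library had H3K27me3, and none of the libraries with H3K27me3 belonged to the stage with H3K27ac. COL11A1, a cartilage fibril chain, had H3K27ac at 3.55 and 2.45 in hESC, 2.64 and 3.97 in hDE, none in hAFE, and 3.51 and 3.71 in hPFE.

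COL5A2 had H3K27ac in 8 of 8 libraries, from 5.03 to 8.30. All 8 peaks were at the higher-coordinate end of its annotated span (chr2:189031898-189441111), 363 bp from the neighbouring gene WDR75, so peaks of the 2 genes cannot be told apart there. COL1A1 and COL1A2 encode the chains of type I collagen, the main protein of bone and tendon. COL1A1 had H3K27me3 in 7 of 7 libraries, from 3.27 to 7.95, and H3K27ac in 1 library each of hESC, hDE and hPFE, at 2.75 to 3.07. COL1A2 had no H3K27me3 in any library, and H3K27ac at 3.23 and 4.10 in hESC, 3.99 in hDE replicate 1 and 4.10 in hPFE replicate 2. COL3A1, the chain of type III collagen, had a single peak at its ends, H3K27ac at 3.04 in hPFE replicate 2. The 2 chains of type I collagen, which join in 1 molecule, therefore differed in H3K27me3 in all 7 libraries.

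The remaining fibrillar genes were mostly under H3K27me3. It was present in 7 of 7 libraries at COL5A3 (4.46 to 7.97), COL24A1 (2.89 to 13.91) and COL27A1 (3.08 to 18.41). COL11A2 had it in 6 of 7 (2.94 to 5.49), all but hESC replicate 1, and its higher-coordinate end lies 69 bp from RXRB. At their ends COL5A3 had no H3K27ac peak in 8 libraries, and COL11A2, COL24A1 and COL27A1 had 1 weak peak each, at 2.59, 2.98 and 2.98. The listed start of COL27A1 lies 1.4 kb from its annotated end, outside the 1 kb counted here. In the 300 bp window of that start, H3K27ac was in 2 hDE libraries and 1 hPFE library. H3K27me3 was there in 1 library each of hESC, hDE and hPFE. The counts of marked fibrillar genes leave this start out. At COL5A3, H3K4me2 was 5.85 and 5.39 in hESC and absent from the 4 later libraries.

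The beaded filament collagens of type VI link cells to the matrix around them. COL6A1 had H3K27ac at 7.05 and 5.05 in hDE, 3.15 and 3.72 in hPFE, and in 1 library each of hESC (2.94) and hAFE (3.56). Its H3K27me3 was 4.96 and 3.50 in hESC, absent in hDE, 3.97 in hAFE and absent in hPFE. COL6A2, its partner chain on the same chromosome, had H3K27ac in hDE alone, at 3.37 and 3.61, and H3K27me3 at 4.64 and 3.50 in hESC, 6.87 in hAFE and 4.52 in hPFE replicate 2. At both genes H3K27me3 was missing from both hDE libraries, where H3K27ac was present in both. COL6A5 and COL6A6, whose chains can stand in for that of COL6A3, had no H3K27ac peak, and H3K27me3 in 7 of 7 libraries, from 3.80 to 6.85 and from 5.32 to 7.91.

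The fibril-associated collagens (FACIT) sit on the surface of fibrils or in basement membrane zones. Of these 10 genes, 0, 2, 0 and 1 carried H3K27ac in hESC, hDE, hAFE and hPFE, and 4, 5, 6 and 5 carried H3K27me3. All protein-coding genes gave 42.9, 54.0, 34.2 and 50.2% for H3K27ac and 19.2, 13.4, 15.5 and 12.7% for H3K27me3. COL9A2 (4.26 to 15.78), COL12A1 (6.82 to 10.26), COL14A1 (3.67 to 7.89) and COL19A1 (3.01 to 8.19) had H3K27me3 in 7 of 7 libraries. COL9A3, a cartilage chain, had H3K27ac at 4.91 and 4.69 in hDE and in 1 hESC library (2.98), and H3K27me3 in all libraries but hESC replicate 2. COL22A1, found at tissue junctions such as that of muscle and tendon, had no H3K27me3, and H3K27ac at 3.35 in hESC replicate 2, 7.10 and 7.09 in hDE, none in hAFE, and 3.05 and 3.98 in hPFE. With lists of equal length, described further on, COL22A1 both gained H3K27ac in hDE and lost it in hAFE.

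Of the membrane-spanning collagens, COL13A1, found at the neuromuscular junction, had H3K27ac at 5.20 and 4.47 in hDE alone. Its H3K27me3 was 6.80 and 10.52 in hESC, absent in hDE and hAFE, and 3.20 and 4.02 in hPFE, so the stages of the 2 marks did not overlap. COL25A1 was called for both marks in hESC and in hDE, with either gene end counted. In the 300 bp window of its start, H3K27me3 was in 1 and H3K27ac in 0 hESC libraries. In hDE, H3K27ac was in 1 and H3K27me3 in 0 libraries there. Over all stages and both ends COL25A1 had H3K27ac in 7 of 8 libraries (3.19 to 6.17) and H3K27me3 in 6 of 7 (3.01 to 11.03). COL23A1 had H3K27me3 in 5 of 7 libraries (3.81 to 8.69), all but the 2 of hDE, where replicate 1 had H3K27ac at 4.38. COL8A2, of the short-chain network type found under the corneal endothelium, had H3K27me3 in 7 of 7 libraries (4.71 to 11.64) and no H3K27ac. Its partner COL8A1 had H3K27me3 at 4.82 and 7.34 in hESC and 3.79 and 2.56 in hPFE, and none in hDE or hAFE. At their ends COL7A1, COL26A1 and COL28A1 had no H3K27me3 in any library and at no stage H3K27ac in both libraries. For COL26A1, a segment just outside this window had H3K27ac in both libraries of every stage, as given at the end.

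Step by step, collagens gained H3K27ac from hESC to hDE at 6 of 25 genes that could (COL4A3, COL4A4, COL2A1, COL5A1, COL6A2 and COL13A1), or 24.0%, where 14.6% of all protein-coding genes did. They lost it at 0 of 7 (2.76%), and from hESC to hPFE also at 0 of 7 (3.81%). From hDE to hAFE they gained it at 0 of 19 (1.16%) and lost it at 8 of 17 (47.1%, against 12.5%): COL4A3, COL4A4, COL5A1, COL11A1, COL6A2, COL9A3, COL22A1 and COL13A1. From hAFE to hPFE 2 of 34 gained it, COL11A1 and COL22A1 (7.71%), and 0 of 6 lost it (0.539%). A gain in hDE followed by a loss in hAFE was seen at 5 of 25 collagens, where 7.63% of protein-coding genes showed it. Both hAFE lists of H3K27ac were the shortest of the mark, 42100 and 24871 peaks against 101186 and 111076 in hDE, so lists of equal length were compared as well. With 24831 peaks a library, 1 of 35 collagens gained H3K27ac in hDE (6.69% of all protein-coding genes) and 1 of 7 lost it in hAFE (6.89%). With peaks of a −log10 p of at least 5, 7 of 35 gained it (15.3%) and 7 of 13 lost it (15.7%). Most of the calls in these steps thus used peaks outside the strongest 24831 of a list. hESC replicate 2 had H3K27ac at 18 collagens and replicate 1 at 8: without replicate 1, hESC had 18 marked collagens, of which 5 lost the mark in hDE and 6 in hPFE, and without replicate 2, 10 gained it in hDE. Without hAFE replicate 2, 10 collagens were marked in hAFE, and leaving out 1 library moved the gains from hAFE to hPFE from 2 to as many as 7 (without hPFE replicate 1), 5 (without hAFE replicate 1) and 4 (without hPFE replicate 2).

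H3K27me3 was lost from hESC to hDE at 7 of 23 collagens, COL4A1, COL4A2, COL6A1, COL6A2, COL8A1, COL13A1 and COL23A1, which is 30.4% beside 22.2% of all protein-coding genes. It was gained at 0 of 15 (0.868%). In hAFE, where the mark has 1 library and no replicate check, it was gained over hDE at 6 of 26 (23.1%, against 2.74%), COL18A1, COL5A1, COL6A1, COL6A2, COL16A1 and COL23A1, and lost at 1 of 18, COL2A1 (15.3%). From hAFE to hPFE it was gained at COL8A1 and COL13A1 (2 of 21, against 1.78%) and lost at COL18A1, COL6A1 and COL16A1 (3 of 23, against 16.1%). From hESC to hPFE it was lost at 3 of 23, COL4A1, COL4A2 and COL6A1 (32.4%), and gained at 0 of 15 (1.55%). Without hESC replicate 1 or hPFE replicate 2 this loss was 5, without hPFE replicate 2 the loss from hAFE to hPFE was 5, and without either hPFE library the gain from hAFE to hPFE was 4. Kept to peaks with a −log10 p of at least 5, the loss in hDE fell to 3 of 19 collagens, COL8A1, COL13A1 and COL23A1 (24.2%). H3K4me2 was lost from hESC to hDE at 1 of 35 collagens, COL5A3 (2.82%), and gained at 0 of 7 (1.87%). From hDE to hAFE it was lost at COL1A2, COL6A2 and COL9A2 (3 of 32, against 3.23%) and gained at COL21A1 (1 of 10, against 8.11%). From hAFE to hPFE it was lost at COL16A1 and COL21A1 (2 of 31, against 5.10%) and gained at COL9A2 (1 of 13, against 11.7%). From hESC to hPFE 5 of 35 lost it (6.18%) and 0 of 7 gained it (6.51%). Of the 11 collagens with no H3K27ac in any library, 8 had H3K27me3 in all 7 (72.7%, against 19.5% of all such protein-coding genes).

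Inside the gene bodies, counted as merged H3K27ac regions with their midpoint in the gene, the basement membrane collagens pooled held more H3K27ac regions per length than the fibrillar collagens pooled in each library. Collagens are long genes (median 145 kb, against 24.1 kb for all protein-coding genes), so regions are given per 100 kb of gene. The basement membrane genes held 1.55 and 2.02 regions per 100 kb in the hESC libraries, 8.40 and 9.14 in hDE, 1.88 and 1.01 in hAFE, and 3.76 and 6.52 in hPFE. The fibrillar genes held 1.28 and 1.89, 4.03 and 3.72, 0.488 and 0.488, and 1.89 and 5.13. All protein-coding genes held 3.59 and 3.33, 4.46 and 4.91, 2.13 and 1.22, and 3.92 and 5.79. The basement membrane genes thus lay above the fibrillar genes in all 8 libraries, and above the protein-coding genes in both hDE libraries and in hPFE replicate 2. With lists of equal length the basement membrane genes held 1.81 and 1.68 regions per 100 kb in hDE against 1.15 and 1.16 for all protein-coding genes, and 0.0672 and 0.806 in hESC against 1.23 and 1.27. The fibrillar genes were then above the basement membrane genes in 2 of 8 libraries, hESC replicate 1 (0.427 against 0.0672) and hPFE replicate 2 (1.10 against 0.739). By the median over genes, with full lists, the fibrillar genes were above in hESC replicate 2, at 1.71 against 1.16 regions per 100 kb. At least 1 region in both libraries was found in 23, 32, 10 and 26 of the 44 collagens in hESC, hDE, hAFE and hPFE, where 50.6, 61.4, 34.9 and 58.4% of all protein-coding genes had one.

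**Figure D4:**
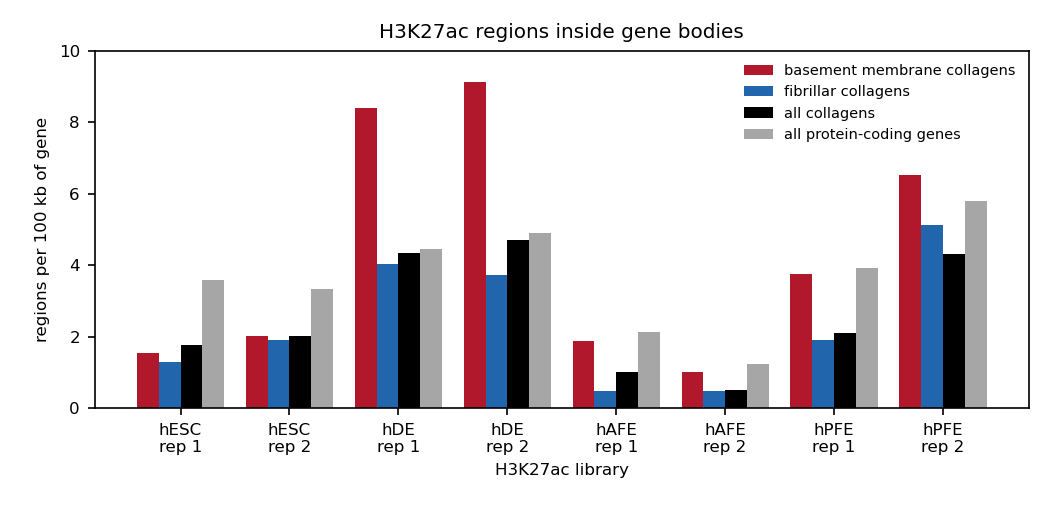
H3K27ac regions per 100 kb of gene (vertical axis) in each of the 8 H3K27ac libraries, pooled over the basement membrane collagens, the fibrillar collagens, all collagens and all protein-coding genes. The basement membrane bars reach 8.40 and 9.14 in the hDE libraries.

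The regions of hDE were concentrated in a few genes. COL4A1 held 35 and 26 regions in hDE, COL4A2 35 and 28, and COL4A6 27 and 31, while each held 1 to 12 in the hAFE libraries. COL4A5, the partner of COL4A6 on the same shared start, held 1 and 2 in hDE. Its body was therefore nearly empty beside a partner with many regions. COL5A2 held 41 and 32 in hDE and 1 and 1 in hAFE, but its annotated span of 409 kb is the longest of the fibrillar genes after COL24A1. COL2A1, only 33.2 kb long, held 0 and 0 in hESC, 3 and 2 in hDE, 6 and 5 in hAFE, and 9 and 17 in hPFE. COL18A1 was highest in hPFE, with 17 and 26, beside 7 and 16 in hDE.

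Segments covered by H3K27ac in both libraries and more than 1 kb from a gene end numbered 32, 184, 17 and 55 over all collagens in the 4 stages from hESC to hPFE. Of the 184 in hDE, 79 were in basement membrane genes (1.49 Mb in all) and 41 in fibrillar genes (1.64 Mb in all). Of the same 184, 160 were covered in both libraries of no other stage. An overlap with another mark was counted only where every library of that mark at the stage had it. By this count H3K4me2 overlapped 13, 53, 9 and 26 of these segments, with 2 libraries in hESC and hDE and 1 in hAFE and hPFE. H3K27me3 overlapped 0 at each stage, and segments overlapped by only 1 of 2 H3K27me3 libraries were not counted. COL5A2 held 28 in hDE, COL4A1 and COL4A6 23 each, and COL4A2 16. In hPFE COL18A1 held 11, COL4A2 9, COL25A1 8 and COL2A1 7, and in hESC COL28A1 held 9. A region that is broken in 1 library gives several segments, so these are counts of shared pieces. They also move with the length covered by a list, which was 44.0 and 46.0 Mb in hDE and 18.7 and 9.60 Mb in hAFE, and they were not recounted with lists of equal length, where the body regions of hDE fell from 303 and 327 to 61 and 53. Segments were not counted over all protein-coding genes, so whether the high number in hDE is particular to collagens was not tested. The segment of COL4A2 at chr13:110338690-110339709, an interior position 31.9 kb from its start, had fold enrichments of 9.82 and 9.34 in hDE, and H3K4me2.

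**Figure D5:**
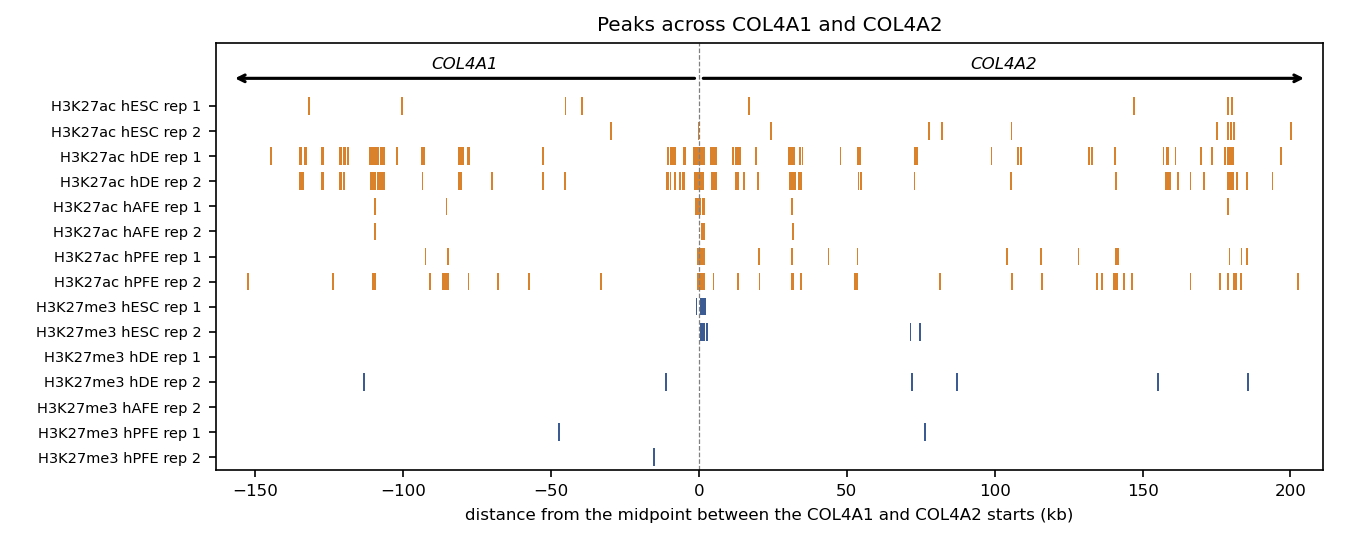
H3K27ac and H3K27me3 peaks across COL4A1 and COL4A2 by library, by distance in kb from the midpoint between their starts (arrows point along transcription, regions are drawn at least 0.6 kb wide). The hDE libraries have 70 and 54 H3K27ac regions here, against 8 and 11 in hESC, 9 and 5 in hAFE and 20 and 42 in hPFE. The H3K27me3 peaks within 1 kb of the shared start are in the hESC libraries.

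Among the 32 collagen promoters with a sequence, those never covered by H3K4me2 were poor in CpG, but CpG content did not rise with H3K4me2 beyond them. In 13 of them H3K4me2 covered the 300 bp window in 6 of 6 libraries, and these held 7 to 45 CpG, with a median of 24. In 5 of them (COL6A3, COL9A1, COL10A1, COL17A1 and COL21A1) it did so in 0 of 6, and these held 1 to 4 CpG, with a median of 3. The median over all protein-coding promoters was 22 CpG. The other 14 held 1 to 46, with a median of 25.5, so CpG content did not separate all genes. COL18A1, with 46 CpG, had H3K4me2 over its window in 1 hESC library and at no later stage. Only 1 window a gene was used: COL9A1 and COL21A1 have a further listed start with 16 and 14 CpG, where H3K4me2 was in 2 hESC libraries. The 8 basement membrane promoters held 7 to 46 CpG, the 2 lowest being the facing starts of COL4A5 and COL4A6, with 8 and 7.

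Collagen chains need enzymes and chaperones to fold and to leave the cell. Of 18 genes for the modification and folding of collagen chains, 10, 14, 7 and 13 carried H3K27ac in hESC, hDE, hAFE and hPFE, and 3, 1, 3 and 1 carried H3K27me3. In percent these are 55.6, 77.8, 38.9 and 72.2 for H3K27ac, against 42.9, 54.0, 34.2 and 50.2% of all protein-coding genes, and 16.7, 5.56, 16.7 and 5.56 for H3K27me3, against 19.2, 13.4, 15.5 and 12.7%. SERPINH1, the collagen chaperone HSP47, had H3K27ac in 8 of 8 libraries, from 7.83 to 13.38. P3H2, a prolyl 3-hydroxylase that acts on type IV collagen, was the 1 of 5 that gained it in hDE (14.6% of all protein-coding genes), at 12.04 and 8.10, and P3H2 and CRTAP (4.60 and 2.94 in hDE) were the 2 of 14 that lost it in hAFE (12.5%). P4HA2 and COLGALT1 were unmarked in hESC and marked in hPFE, at 3.53 and 3.80 and at 3.12 and 3.98.

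Of 14 genes for the processing and crosslinking of collagen, 3, 5, 2 and 4 carried H3K27ac and 7, 7, 6 and 8 carried H3K27me3. In percent these are 21.4, 35.7, 14.3 and 28.6 for H3K27ac and 50, 50, 42.9 and 57.1 for H3K27me3, beside the same shares of all protein-coding genes as above. From hESC to hDE 3 of 8 gained H3K27ac (14.6% of all protein-coding genes) and 2 of 3 lost it (2.76%), PCOLCE and LOXL2. ADAMTS3, a procollagen N-proteinase, gained H3K27ac in hDE at 6.13 and 6.85 and kept it in hAFE and hPFE. PCOLCE2 gained it in hDE, at 4.91 and 5.56, and LOXL1, a lysyl oxidase, at 3.99 and 4.03. Of 15 basement membrane partners, 4, 6, 6 and 8 carried H3K27ac and 7, 4, 6 and 5 carried H3K27me3. In percent these are 26.7, 40, 40 and 53.3 for H3K27ac, against 42.9, 54.0, 34.2 and 50.2% of all protein-coding genes. The partners were thus below that share in hESC and hDE and above it in hAFE and hPFE. For H3K27me3 they are 46.7, 26.7, 40 and 33.3%, each above the 19.2, 13.4, 15.5 and 12.7% of all protein-coding genes. None of the partners went from unmarked to marked for H3K27ac, or the reverse, in any step. The laminin chains LAMA5, LAMB2 and LAMC1 had H3K27ac at every stage. Of 7 collagen receptors, 3, 2, 1 and 2 carried H3K27ac and 2, 2, 1 and 1 carried H3K27me3, which is 42.9, 28.6, 14.3 and 28.6% and 28.6, 28.6, 14.3 and 14.3% of the list, beside the shares of all protein-coding genes given above. ITGB1, the shared beta chain of the collagen-binding integrins, had H3K27ac in 8 of 8 libraries, from 5.98 to 25.64. ITGA10 gained it in hDE, at 3.22 and 2.93, and lost it in hAFE, ITGA1 lost it in hDE, and DDR1 gained it from hAFE to hPFE.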

How the data were processed

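ChIP-seq of H3K27ac, H3K27me3 and H3K4me2 in 4 stages derived from H1 cells gave 21 peak lists, which were used as deposited, and 4 input samples that were not analysed here. Per the deposited file names, the authors made each list from 1 library without duplicates, set against the input of its stage, at a p-value of 0.01 and with at most 500 K peaks. Coordinates are hg38, per the submitters' processing notes. For aligner and peak caller, names and versions were not given in the sources used here. The name of replicate 1 of H3K27me3 in hESC, hDE and hPFE carries the word millipore, and no source used here explains it. Each deposited peak has a score, a fold enrichment over control (a ratio), a −log10 p-value and a −log10 q-value, all computed by the authors. Here the deposited fold enrichment describes peaks, the deposited −log10 p ranks or filters peaks within a list, and the deposited score and −log10 q were not used for any result. Values of different lists were set side by side and not tested, shared segments were ordered by the lower of both libraries' folds, and the sequencing depth is unknown. Replicates are those of the labels, and nothing says whether they are separate cultures.

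Peaks on chromosomes 1 to 22, X and Y were merged within each library (Python 3.11.15, pandas 2.3.3, numpy 2.4.6) and overlapped, by at least 1 bp, with windows of 1 kb on either side of both ends of each gene of the RefSeq table (GRCh38.p14). Strand came from the promoter table, which held 15843 protein-coding genes and 32 of the 44 collagens. The scripts were tested on simulated peak lists with planted gains and losses. Alternatives were a −log10 p of at least 5, windows of 2.5 kb, an overlap of at least 200 bp, lists of equal length, the start end alone, any overlap with a gene body, and each library left out. Named with values were all basement membrane and fibrillar collagens and every other collagen that gained or lost H3K27ac or that carried H3K27ac or H3K27me3 at every stage, plus up to 4 genes a partner list that gained or lost H3K27ac, by the lower of the library values. The other named genes, among them SERPINH1, LAMA5, LAMB2, LAMC1, ITGB1 and the collagens outside the rule, were chosen after their values were seen. The collagen genes, their classes and the gene lists were chosen with earlier results of these data known.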

Additional observations from a re-analysis of the deposited data

How the results depend on the processing

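No paired analysis was possible because the counts come from no test and the hAFE H3K27me3 library carries the number 2 alone. The start end alone (over the 32 collagens with a strand) changed 2 of 52 counts by over 1.5 times, the H3K27me3 gains from hESC to hDE and to hPFE, both from 0 to 1, and any overlap with a gene body changed 0 of 8.

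Windows of 2.5 kb gave 1 collagen that lost H3K27ac from hESC to hDE, 4 that gained it from hAFE to hPFE and 2 from hESC to hPFE, 4 that gained H3K27me3 from hAFE to hPFE and 1 from hESC to hPFE, and 6 fibrillar genes with H3K27ac in hPFE. An overlap of at least 200 bp gave 3 collagens with H3K27ac in hESC, 1 that gained it from hAFE to hPFE and 2 from hESC to hPFE. It also gave 3 that gained and 3 that lost H3K27me3 from hDE to hAFE, 6 that lost it from hESC to hPFE, 2 basement membrane genes with H3K27ac and 1 with H3K27me3 in hAFE, and 1 fibrillar gene with H3K27ac in hESC.

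Peaks with a −log10 p of at least 5 gave 4 collagens with H3K27ac in hESC, 1 that lost it from hESC to hDE and 1 that gained it from hAFE to hPFE. They gave 3 that lost H3K27me3 from hESC to hDE and 0 that gained it from hAFE to hPFE. In hAFE 2 basement membrane genes had H3K27ac, in hESC 3 had H3K27me3, and H3K27ac was at 1 fibrillar gene in hESC and 2 in hDE. The body regions of the collagens in replicates 1 and 2 were 34 and 30 in hESC, 156 and 141 in hDE, 34 and 9 in hAFE, and 48 and 81 in hPFE (as deposited 122, 141, 303, 327, 70, 35, 147 and 301).

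Lists of equal length gave 3 collagens with H3K27ac in hESC and 7 in hDE, 1 that gained it at each adjacent step and 1 that lost it from hDE to hAFE, 1 that gained H3K27me3 from hAFE to hPFE, and 1 fibrillar gene with H3K27ac in hESC and 1 in hDE. Body regions were 20 and 32 in hESC, 61 and 53 in hDE, 34 in hAFE replicate 1, and 32 and 42 in hPFE.

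With 1 library left out, which raises counts by construction, collagens with H3K27ac numbered 8 to 18 in hESC and 6 to 10 in hAFE. Gains of H3K27ac were 7 to 10 from hESC to hDE, 2 to 7 from hAFE to hPFE and 2 to 4 from hESC to hPFE, and losses 0 to 5 from hESC to hDE and 0 to 6 from hESC to hPFE. Basement membrane genes with H3K27ac in hESC were 3 to 5, and fibrillar genes 3 to 6 in hESC and 4 to 6 in hPFE. Gains of H3K27me3 were 0 to 1 from hESC to hDE, 0 to 2 from hESC to hPFE and 4 from hAFE to hPFE, and losses were 3 to 5 from hAFE to hPFE and from hESC to hPFE. The cause of these shifts was not tested. The other counts stayed within 1.5 times under these alternatives, and with unknown depth a missing peak cannot be read as a missing mark.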

Other observations

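Some collagens held H3K27ac regions inside the gene at stages where their ends were not marked by it in both libraries. COL19A1, a fibril-associated chain with H3K27me3 at its ends in 7 of 7 libraries, held 15 and 13 H3K27ac regions in its body in hDE against 2 and 1 in hESC. The segment of COL19A1 shared by both hDE libraries with the highest lower fold enrichment (11.81 and 12.09) lay 28.2 kb from its start, at chr6:69893942-69895489, with H3K4me2. COL15A1 had no H3K27ac at its ends and held 7 and 8 regions in hDE, 0 and 0 in hESC and 0 and 0 in hAFE. COL8A1, at whose ends neither hDE library had H3K27me3, held 11 and 12 in hDE and 2 and 2 in hESC.

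COL28A1, with no H3K4me2 at its ends in any library, held 16 and 11 body regions in hESC, 4 and 3 in hDE, 0 and 0 in hAFE, and 3 and 8 in hPFE, and its 9 shared segments were the most of any collagen in hESC. COL26A1 held 16 and 13 in hESC, 7 and 8 in hDE, 8 and 4 in hAFE, and 8 and 18 in hPFE. Its segment at chr7:101363657-101364086 overlapped H3K27ac in both libraries of each of the 4 stages, with fold enrichments of 12.20 and 15.43 in hPFE. It lies 1.5 kb from the annotated gene end and nearer to the listed start site, which is 0.5 kb inside that end. COL25A1 held 18 and 3 regions in hAFE and 22 and 27 in hPFE, against 7 and 5 in hESC.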
